A study of Bos taurus with 24 samples.

Results

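The miR-30 family was measured in mammary gland biopsies of lactating cows by small RNA sequencing. Its 6 members, bta-miR-30a-5p, bta-miR-30b-5p, bta-miR-30c, bta-miR-30d, bta-miR-30e-5p and bta-miR-30f, were taken by exact name from the 796 miRNAs listed in the count tables. Hereafter they are written without the species prefix. Biopsies came from Holstein (HOLS) and Montbéliarde (MONT) cows, multiparous and in midlactation according to the study's methods, taking the rear glands of the udder in turn. Each cow was sampled before feed restriction (CONT, day 0) and after 6 days of it (REST), the labels giving a diet that met 60% of the net energy for lactation estimated beforehand. The study's methods state a lower energy level than the labels, so the depth of the restriction is uncertain. There were 5 HOLS and 6 MONT cows, hence 22 libraries, and each cow served as her own control. No group was fed without restriction over the same days, so the period and the diet cannot be told apart. The labels hold 24 samples, and the 2 samples of another HOLS cow were not analysed here.

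MiRNAs of one family share a seed, the stretch near the 5′ end that pairs with target mRNAs, and are therefore thought to repress overlapping sets of targets. Members of the miR-30 family are known as regulators of autophagy and of the epithelial phenotype, with BECN1 and SNAI1 among the described targets of miR-30a. In the mouse, forced expression of miR-30b in the mammary gland is known to impair lactation. The members come from a few genomic sites. In the RefSeq annotation of ARS-UCD2.0, MIR30D was listed next to MIR30B, MIR30C next to MIR30E with both inside NFYC, a gene for a subunit of the transcription factor NF-Y, and MIR30A and MIR30F were each other's nearest miRNA gene.

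Libraries held between 6087865 and 18913916 miRNA counts. The least abundant member had at least 881 counts in every library, so counting error was small beside the differences between cows. Levels are given as counts per 1000000 miRNA counts (cpm) or as percent of all miRNA counts of a library, and tests used edgeR's quasi-likelihood fit across all miRNAs with Benjamini-Hochberg adjustment, a call being an adjusted p of at most 0.05. The fit held no term for the cow, so the pairing of libraries was not used except where the cow is named as a block. In most cows the CONT and REST libraries deviated from their group means in the same way. They did not in MONT cow 9615, for which the correlation of the deviations over miRNAs was -0.33, and hardly in MONT cow 2614, at 0.07. The MONT values of some members are therefore also given without these cows. The period labels of cow 9615 could not be checked from the counts and were used as given, and every MONT value rests on them. A share of counts in bulk tissue cannot tell fewer cells of a type from less of the miRNA per cell.

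The family was a major part of the mammary miRNAs. The 6 members together held 12.3% ± 0.807 of all counts in HOLS CONT (SD, n = 5), 11.3% ± 2.15 in HOLS REST (n = 5), 9.40% ± 2.54 in MONT CONT (n = 6) and 7.36% ± 1.78 in MONT REST (n = 6). The summed share spanned 11.5 to 13.4% in HOLS CONT, 8.32 to 14.2% in HOLS REST, 5.92 to 12.4% in MONT CONT and 5.01 to 9.58% in MONT REST. The ranges of the 2 periods overlapped within each breed, and those of the 2 breeds overlapped within each period.

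Almost all of this came from miR-30a-5p, which made up between 79.3 and 90.3% of the family's counts, with a median of 87.4%. Averaged over the libraries of a breed, miR-30a-5p held 10.4% of all counts in HOLS, second to miR-143 at 20.8% and ahead of miR-148a (9.77%), miR-10b (9.43%) and miR-148d (6.92%). In MONT it held 7.24% and came after miR-143 (29.5%) and miR-10b (8.17%) and ahead of miR-26a (7.02%) and miR-148a (6.41%). miR-143 is a miRNA typical of smooth muscle and stroma. miR-30a-5p was among the 3 most abundant miRNAs in 16 of 22 libraries and was the most abundant in 0 of 22.

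The other members were scarcer by at least 6.77-fold. miR-30d made up 5.95 to 11.7% of the family's counts and miR-30e-5p 2.59 to 6.43%. Below them, miR-30b-5p made up 0.352 to 1.29%, miR-30c 0.376 to 1.07% and miR-30f 0.147 to 0.350%. The descending order miR-30a-5p, miR-30d, miR-30e-5p, miR-30b-5p, miR-30c, miR-30f held in 19 of 22 libraries. In the other 3 libraries miR-30c stood above miR-30b-5p. The ratio of miR-30b-5p to miR-30c ran from 0.912 to 1.37 with a median of 1.12, so their order was not fixed. In contrast, miR-30d exceeded miR-30e-5p by 1.76- to 2.76-fold in every library. Adapters join some small RNAs more readily than others, so the order is one of sequenced counts. A single opposite arm was listed, miR-30b-3p, at 0.413 to 1.75 cpm.

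**Figure D1:**
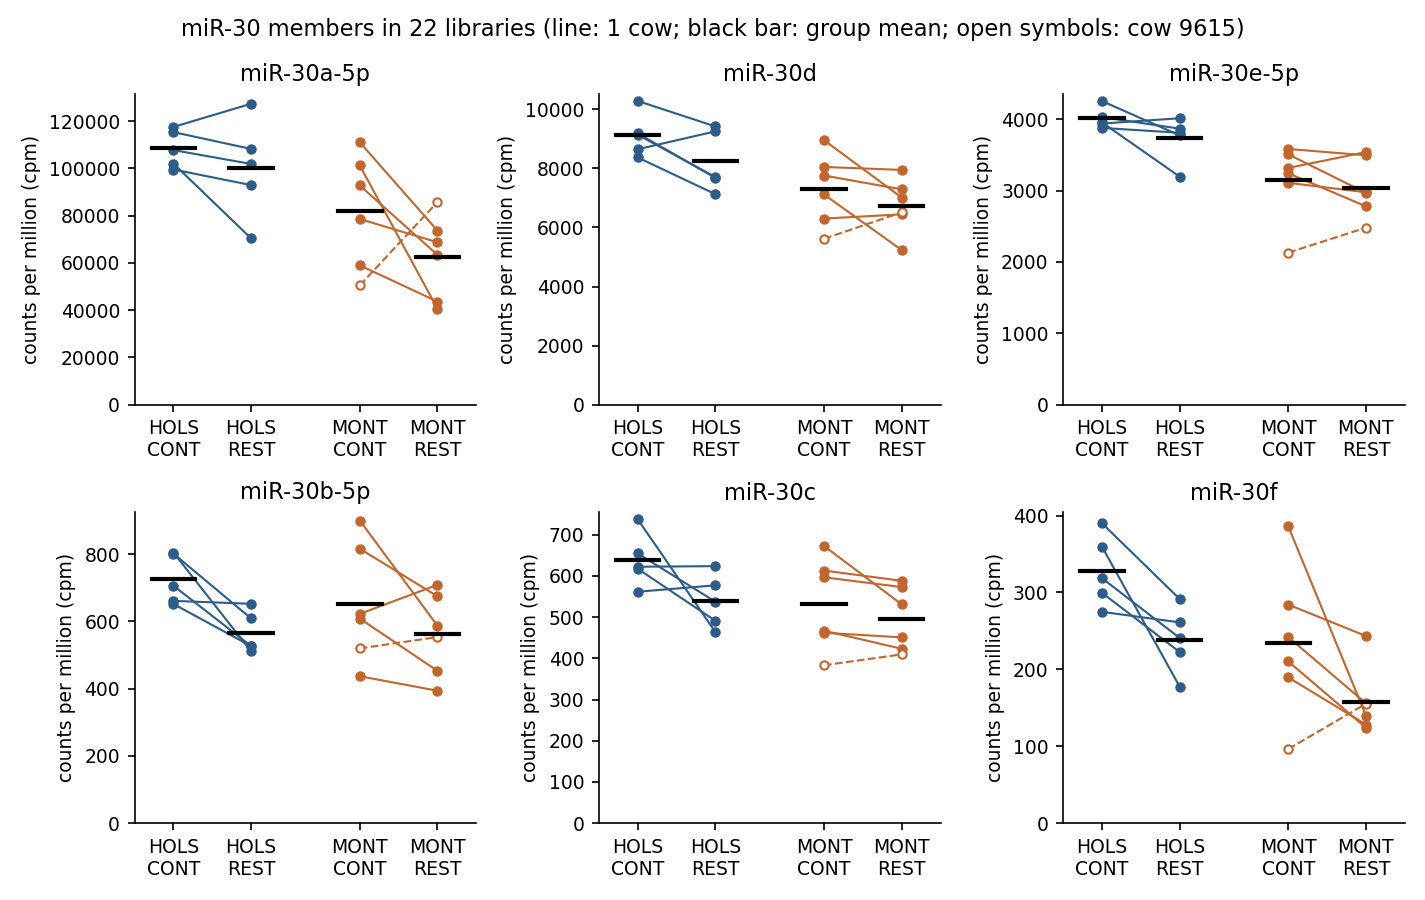
Level of each member in every library, in cpm (linear axes from 0), with a line joining the 2 libraries of each cow, blue for HOLS and orange for MONT. Black bars are group means, and the dashed line with open symbols is MONT cow 9615, in which all 6 members were higher in REST. miR-30e-5p in CONT is the panel in which no MONT library reached the HOLS libraries.

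The first comparison asked how the members responded to feed restriction in HOLS cows. miR-30f was the member with the largest difference and miR-30b-5p came next, both with lower levels in REST in 5 of 5 cows, while the more abundant miR-30a-5p, miR-30d and miR-30e-5p had estimates near 0. None of the 6 members passed the test, which did not use the pairing, and 9 of the 374 miRNAs tested did (2.41%). Without adjustment, 1 member had a p under 0.05, against 87 of the 374 miRNAs, and DESeq2 called 0 members as well. The median log2 fold change was -0.03 over the members and 0.02 over all miRNAs tested.

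In HOLS CONT, miR-30f stood at 359 cpm in cow 1155, 319 in cow 1165, 390 in cow 2182, 275 in cow 8200 and 299 in cow 9195. In HOLS REST the same cows had 178, 241, 292, 261 and 223 cpm. In cpm, 4 REST libraries lay below every CONT library, but the groups overlapped through cow 2182, which was high in both periods. As counts scaled by DESeq2 size factors, miR-30f spanned 3677 to 4718 in CONT and 2508 to 3614 in REST, so the overlap depended on the scaling. In cpm, 27 of 348 miRNAs did not overlap between these groups (7.76%), and on the other scale this was not counted. The log2 fold change of miR-30f was -0.29 (SE 0.12, 95% interval -0.54 to -0.03, adjusted p = 0.187, edgeR). With the cow as a block it was -0.30, with an adjusted p of 0.0512 in edgeR (61 of 374 miRNAs called, 16.3%) and 0.0432 in DESeq2 (70 of 359 called, 19.5%), so the paired DESeq2 fit called miR-30f and the paired edgeR fit did not.

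miR-30b-5p stood at 805, 802, 652, 661 and 706 cpm in HOLS CONT, in the same order of cows. In REST it stood at 511, 609, 527, 652 and 527 cpm. In cpm, again 4 REST libraries lay below every CONT library, and cow 8200 accounted for the overlap. Scaled by size factors, miR-30b-5p spanned 7887 to 9386 in CONT and 6527 to 8894 in REST, with cows 1165 and 8200 in the overlap. The log2 fold change of miR-30b-5p was -0.19 (SE 0.10, 95% interval -0.41 to 0.04, adjusted p = 0.304, edgeR). With the cow as a block it was also -0.19, with a 95% interval of -0.36 to -0.01, and was not called (adjusted p = 0.111, edgeR).

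miR-30a-5p stood at 9.95, 11.8, 10.2, 10.8 and 11.5% of all counts in HOLS CONT and at 9.29, 12.7, 7.03, 10.2 and 10.8% in REST. Cow 1165 held more in REST and the other 4 cows less, cow 2182 standing lowest of all HOLS libraries after restriction. Scaled by TMM, which sets aside the shift caused by a few abundant miRNAs, its log2 fold change was 0.06 (SE 0.17, 95% interval -0.30 to 0.42, adjusted p = 0.886). Those of miR-30d, miR-30e-5p and miR-30c were 0.02, 0.06 and -0.08 (SE 0.09 to 0.10, adjusted p = 0.711 to 0.947). When only the library totals were used for scaling, the median of all miRNAs moved by -0.17 and the values of miR-30a-5p, miR-30d and miR-30e-5p turned negative, so no direction can be given for these 3 members. The epithelial marker miRNAs summed to a median of 4.57% in HOLS CONT and 3.99% in REST, and the smooth muscle and stroma markers to 19.0 and 23.3%. Their part in the members' values was not tested.

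The same question was asked in MONT cows. The estimates of all 6 members were below 0, those of miR-30f and miR-30a-5p most, but cow 9615 went the other way for every member. None of the 6 members and none of the 349 miRNAs tested passed (0%), with 47 miRNAs and 0 members at an unadjusted p under 0.05 and 0 calls in DESeq2. The median log2 fold change was -0.11 over the members and -0.01 over all miRNAs.

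miR-30f spanned 96.4 to 386 cpm in MONT CONT (median 226) and 124 to 243 cpm in MONT REST (median 148). miR-30a-5p spanned 5.05 to 11.1% of all counts in CONT (median 8.56%) and 4.06 to 8.57% in REST (median 6.61%). For both members the lowest CONT library was that of cow 9615, and the groups overlapped. On the scale of log2 normalized counts, miR-30f was lower in REST in 5 of 6 cows, from -1.16 in cow 2614 to -0.21 in cow 1640, and higher by 0.85 in cow 9615. miR-30a-5p was likewise lower in 5 of 6 cows, from -1.01 in cow 2614 to -0.18 in cow 1640, and higher by 0.92 in cow 9615.

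Over the 6 cows, the log2 fold change of miR-30f was -0.50 (SE 0.26, 95% interval -1.06 to 0.06, adjusted p = 0.405, edgeR) and that of miR-30a-5p was -0.30 (SE 0.27, 95% interval -0.89 to 0.29, adjusted p = 0.569). Without cow 9615, 46 of 358 miRNAs were called (12.8%), and miR-30f was among them, lower in REST with a log2 fold change of -0.72 (SE 0.20, adjusted p = 0.0391), while miR-30a-5p was at -0.61 (adjusted p = 0.125). Without cow 2614 the values were closer to 0, at -0.29 for miR-30f (adjusted p = 0.874) and -0.15 for miR-30a-5p (adjusted p = 0.938). The values of miR-30b-5p, miR-30c, miR-30d and miR-30e-5p over the 6 cows were -0.16, -0.06, -0.07 and -0.01 (adjusted p = 0.632 to 0.949). The epithelial markers summed to medians of 3.07% in MONT CONT and 2.70% in REST, and the smooth muscle and stroma markers to 27.6 and 30.7%. Of the epithelial list only miR-205 had a higher mean in REST (0.302 against 0.247%). The part of the markers was not tested.

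**Figure D2:**
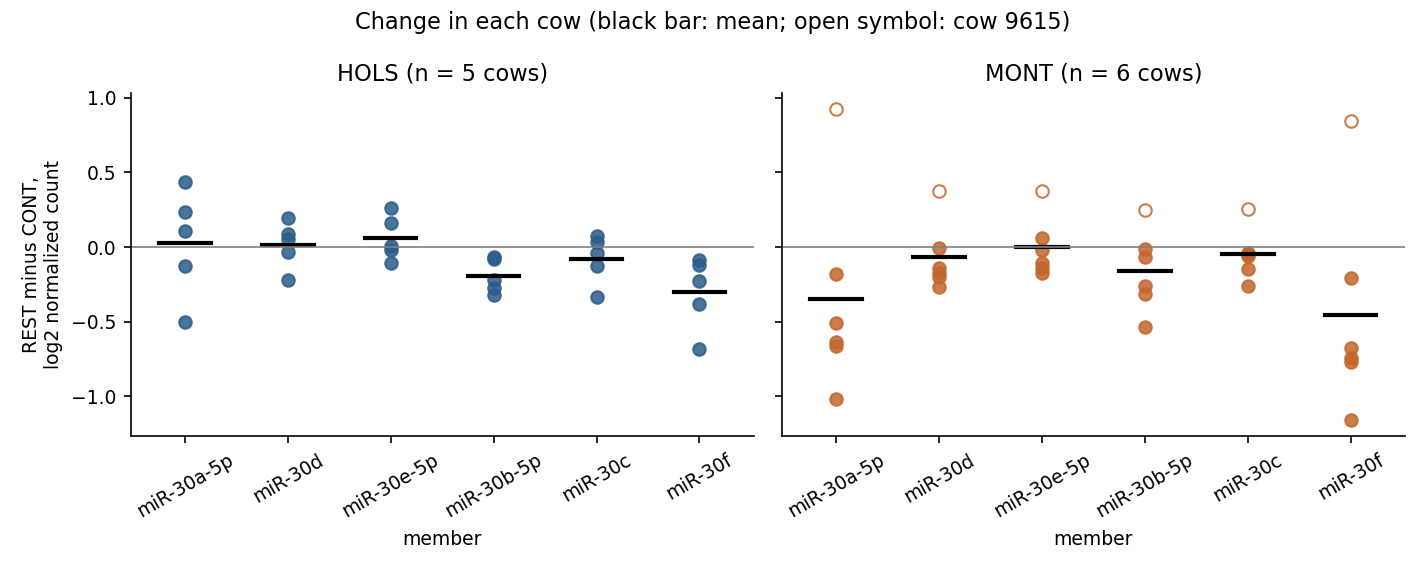
Difference between REST and CONT in each cow, on the log2 scale of normalized counts, for each member, with HOLS at left and MONT at right. Each point is 1 cow and the black bar is the mean. In HOLS all points of miR-30b-5p and miR-30f lie below 0, and in MONT the open symbol, cow 9615, is the highest for every member.

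Whether HOLS and MONT cows responded differently was assessed with the interaction term of the model. None of the 6 members and none of the 388 miRNAs tested passed (0%), with 3 miRNAs and 0 members at an unadjusted p under 0.05, and 0 calls in DESeq2. The differences between the responses, MONT minus HOLS, ran from -0.31 for miR-30a-5p to 0.08 for miR-30b-5p on the log2 scale, each with an adjusted p of 0.991. Without MONT cow 9615 the value of miR-30a-5p was -0.61 (adjusted p = 0.561, edgeR) and that of miR-30f -0.36 (adjusted p = 0.723). Again 0 of 388 miRNAs passed (0%), with 33 miRNAs and 0 members at an unadjusted p under 0.05. Without cow 2614 the values were -0.24 and -0.03 (adjusted p = 0.998, edgeR).

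The breeds were then compared before restriction. Every member was lower in MONT than in HOLS by the estimate, and miR-30e-5p was the member for which the libraries of the breeds were apart, but no member passed the edgeR test. Of the 360 miRNAs tested 2 passed (0.556%), while 4 members had an unadjusted p under 0.05, against 73 miRNAs in all. The median log2 fold change was -0.33 over the members and 0.01 over all miRNAs. HOLS and MONT libraries were deposited in separate tables. According to the study, MONT libraries also had more short and adapter reads and a smaller share of clean reads. Breed, table and library quality therefore cannot be told apart in this and the next breed comparison.

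In HOLS CONT, miR-30e-5p stood at 4255 cpm in cow 1155, 4030 in cow 1165, 3879 in cow 2182, 3939 in cow 8200 and 3956 in cow 9195. In MONT CONT it spanned 2131 to 3583 cpm, with a median of 3280. The groups did not overlap, as for 8 of 348 miRNAs compared in the same way (2.3%). The log2 fold change of miR-30e-5p was -0.35 (SE 0.12, 95% interval -0.60 to -0.10, adjusted p = 0.151, edgeR). DESeq2 gave -0.36 with an adjusted p of 0.0423 and called it, among 20 calls in 504 miRNAs (3.97%). The log2 fold changes of the other members were -0.50 for miR-30f, -0.40 for miR-30a-5p, -0.30 for miR-30d, -0.27 for miR-30c and -0.16 for miR-30b-5p (adjusted p = 0.231 to 0.536, edgeR). Without MONT cow 9615 that of miR-30f was -0.36 (adjusted p = 0.215, edgeR), with 0 of 357 miRNAs called (0%). In that fit 2 members had an unadjusted p under 0.05, against 64 miRNAs. Without cow 2614 miR-30f was at -0.64 (adjusted p = 0.0980, edgeR), with 6 of 350 miRNAs called (1.71%). Nearly all counts of the smooth muscle and stroma markers were miR-143. Their sum did not overlap between the breeds either, at 16.0 to 21.4% in HOLS CONT and 22.01 to 33.9% in MONT CONT. Of that list only miR-145 had a lower mean in MONT (0.0332 against 0.0396%). The epithelial markers, most of their counts miR-141, overlapped, at 3.89 to 5.12% and 1.87 to 4.92%. Of these only miR-205 (0.247 against 0.188%) and miR-182 (0.276 against 0.268%) had higher means in MONT. The part of the markers in the breed differences before restriction was not tested.

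After restriction, miR-30e-5p and miR-30f were lower in MONT than in HOLS and passed the test, and the estimates of the other 4 members were also below 0. These 2 calls among 6 members stand beside 58 of 378 miRNAs called (15.3%), of which 37 were higher and 21 lower in MONT. With scaling by library totals the split was 41 higher and 13 lower. The median log2 fold change was -0.41 over the members and 0.03 over all miRNAs.

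miR-30e-5p stood at 3774 cpm in cow 1155, 3868 in cow 1165, 3811 in cow 2182, 4014 in cow 8200 and 3195 in cow 9195 in HOLS REST, and spanned 2480 to 3540 cpm in MONT REST with a median of 2972. Of the HOLS libraries, 4 lay above every MONT library, and cow 9195 lay among them. Its log2 fold change was -0.42 (SE 0.10, 95% interval -0.64 to -0.20, adjusted p = 0.0163, edgeR).

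For miR-30f, the HOLS REST values of 178 to 292 cpm given above compare with 124 to 243 cpm in MONT REST. Of the 6 MONT libraries, 5 lay below every HOLS library, and cow 1640, at 243 cpm, overlapped with them. The log2 fold change of miR-30f was -0.70 (SE 0.18, 95% interval -1.10 to -0.31, adjusted p = 0.0226, edgeR).

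The largest estimate was that of miR-30a-5p at -0.77, but it varied more between cows (SE 0.26, 95% interval -1.32 to -0.21) and did not pass (adjusted p = 0.0613, edgeR). In 4 of 5 HOLS cows miR-30a-5p held more of the counts after restriction than in any MONT cow, and cow 2182, at 7.03%, was the exception. DESeq2 called it with an adjusted p of 0.0494 (83 of 481 miRNAs called, 17.3%). miR-30d had a log2 fold change of -0.40 (SE 0.14, adjusted p = 0.0686), miR-30c of -0.24 (adjusted p = 0.157) and miR-30b-5p of -0.13 (adjusted p = 0.566).

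Both calls were kept in DESeq2 (miR-30e-5p adjusted p = 5.42e-05, miR-30f adjusted p = 0.00614), which called 83 of 481 miRNAs (17.3%). In edgeR they were also kept with DESeq2 size factors (56 of 378 called, 14.8%) and with the members left out of the scaling (55 of 378 called, 14.6%). In other settings the calls depended on the scaling, the filter and single cows. Scaling by library totals moved the median of all miRNAs by 0.13, and 54 of 378 miRNAs were called (14.3%). Both calls were then lost (miR-30e-5p -0.30, adjusted p = 0.183, and miR-30f -0.60, adjusted p = 0.0608, edgeR). miR-30a-5p passed instead (-0.68, adjusted p = 0.0458, edgeR). With no filter on low counts miR-30e-5p was lost (adjusted p = 0.0570, edgeR) and miR-30f kept its call (adjusted p = 0.0336), with 55 of 761 miRNAs called (7.23%). Without HOLS cow 8200 neither call remained, with adjusted p = 0.0534 for miR-30e-5p and 0.0544 for miR-30f in edgeR (42 of 378 called, 11.1%). Without MONT cow 2614 the call of miR-30f was lost (adjusted p = 0.0537, edgeR, 49 of 367 called, 13.4%). Without MONT cow 9615 miR-30a-5p passed (log2 fold change -0.94, adjusted p = 0.0202, edgeR), where 77 of 378 miRNAs were called (20.4%). It also passed without HOLS cow 2182 (-0.89, adjusted p = 0.0417, edgeR), where 57 of 376 were called (15.2%). Epithelial markers, most of their counts miR-141, summed to 2.79 to 5.07% in HOLS REST and to 1.53 to 3.09% in MONT REST. Of that list only miR-205 (0.302 against 0.180%) and miR-182 (0.274 against 0.221%) had higher means in MONT. Smooth muscle and stroma markers, nearly all miR-143, summed to 18.8 to 25.3% and 26.0 to 42.8%, again without overlap. Of single miRNAs, 18 of 348 did not overlap in cpm between these groups (5.17%). Of these only miR-145 had a lower mean in MONT (0.0349 against 0.0422%). The part of the markers in the breed differences was not tested.

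**Figure D3:**
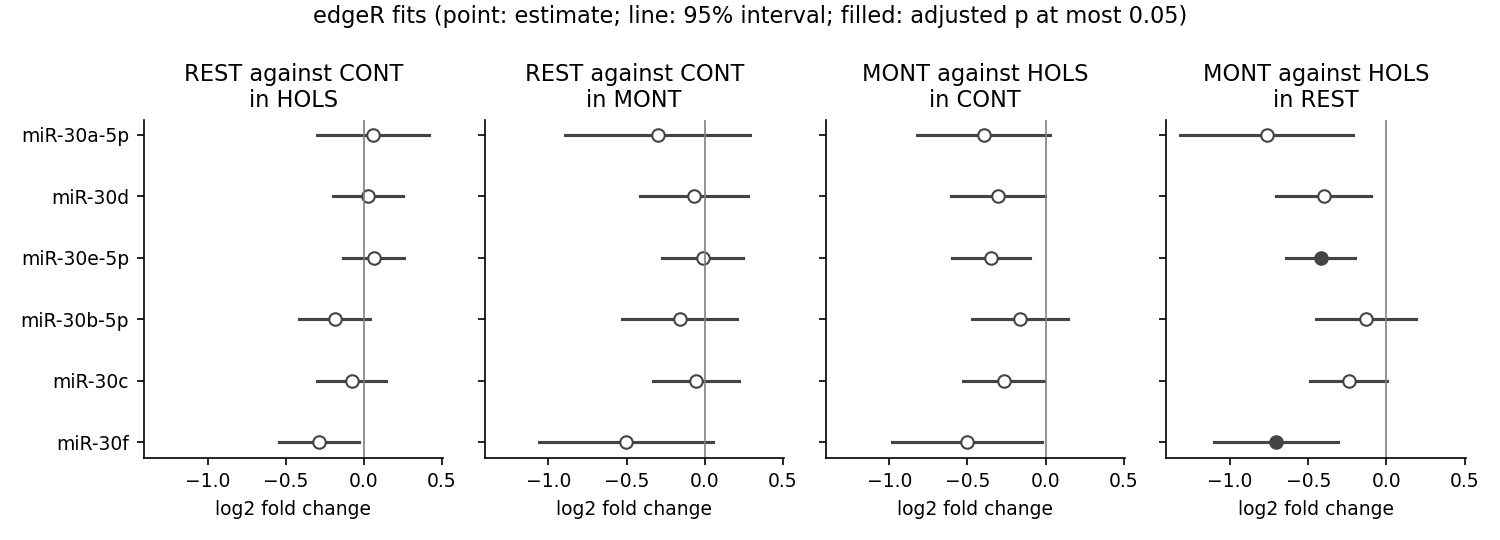
Log2 fold change of each member in 4 comparisons, with the edgeR estimate as a point and the 95% interval as a line. Filled points, miR-30e-5p and miR-30f in REST, are those that passed the test at an adjusted p threshold of 0.05. In both breed comparisons all 6 points lie below 0.

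Members that are neighbours in the genome did not always move together. The following correlations are descriptions over 22 libraries that share depth and scale. Of the 15 pairs of members, miR-30e-5p and miR-30c, both within NFYC, had the highest Pearson r of log2 shares, 0.83 over all libraries and 0.82 once group means were removed. Their ratio stayed between 5.21 and 8.14 across libraries. For miR-30a-5p and miR-30f the same r was 0.69 and 0.44, and the ratio ranged from 241 to 593. For miR-30d and miR-30b-5p, whose genes lie side by side, r was only 0.29 and 0.07, and the ratio ranged from 7.91 to 20.5.

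Pairs from separate sites could be closer than these neighbours. miR-30b-5p and miR-30c had an r of 0.81 and 0.79 without group means, and miR-30a-5p and miR-30d of 0.82 and 0.69. By contrast, miR-30a-5p and miR-30c had an r of 0.25 and -0.13. With the group means removed, miR-30a-5p had its highest r among members with miR-30d, and miR-30b-5p had its highest with miR-30c.

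A ratio of members within a library does not depend on how libraries are scaled. The ratio of miR-30d to miR-30b-5p was higher in REST in 5 of 5 HOLS cows, by 0.05 to 0.41 on the log2 scale (mean 0.21 ± 0.14 SD), going from 11.4-14.1 in CONT to 13.5-15.5 in REST. In MONT it was higher in 4 of 6 cows, between -0.20 and 0.34. The ratio of miR-30a-5p to miR-30f was higher in REST in 3 of 5 HOLS cows, between -0.12 and 0.92, and in 6 of 6 MONT cows, by 0.03 to 0.17. Cow 9615, in which both members were higher in REST, thus had a change in this ratio, 0.08, inside the range of the other MONT cows. The ratio of miR-30e-5p to miR-30c was higher in 4 of 5 HOLS and 4 of 6 MONT cows, between -0.08 and 0.50.

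**Figure D4:**
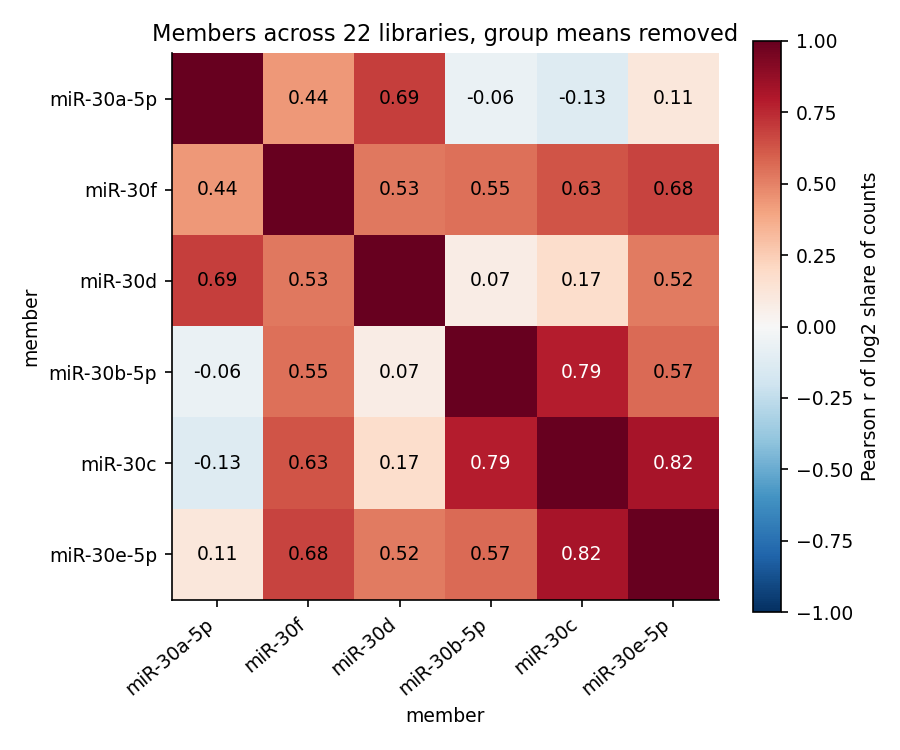
Pearson r between members of the log2 share of counts over 22 libraries, after subtraction of the mean of each of the 4 groups (colour scale from -1 to 1, value in each cell). miR-30b-5p, miR-30c and miR-30e-5p, placed side by side at the lower right, have values of 0.57 to 0.82, and miR-30a-5p is near 0 with these 3 members. They are not set apart from miR-30f, which has values of 0.55 to 0.68 with them.

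Among the other miRNAs that passed the filter in both breeds, the one whose level followed the family most closely was miR-141, a member of the miR-200 family that is typical of epithelial cells. Its r with the summed log2 share of the family was 0.95 over 22 libraries and 0.91 with group means removed. It was followed by miR-200c (0.92 and 0.86), encoded beside miR-141, then over all libraries by miR-29c (0.89), miR-6522 (0.88) and miR-148a (0.86). With group means removed the next were the predicted chr10_11288_mature and chr16_17042_mature, scarce and with equal r (0.85), and miR-6522 (0.82). As miR-30a-5p makes up most of the sum, these values describe mainly that member.

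Each member had a different closest miRNA. Over all libraries and with group means removed, it was miR-141 for miR-30a-5p (0.95 and 0.92), miR-186 for miR-30d (0.93 and 0.91) and miR-103 for miR-30f (0.95 and 0.93). For miR-30b-5p it was miR-331-3p over all libraries (0.82) and miR-19b with group means removed (0.85), and for miR-30c the same 2 miRNAs in the reverse order (miR-19b 0.86, miR-331-3p 0.85). For miR-30e-5p it was miR-2284ab (0.88) and miR-339b (0.85).

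**Figure D5:**
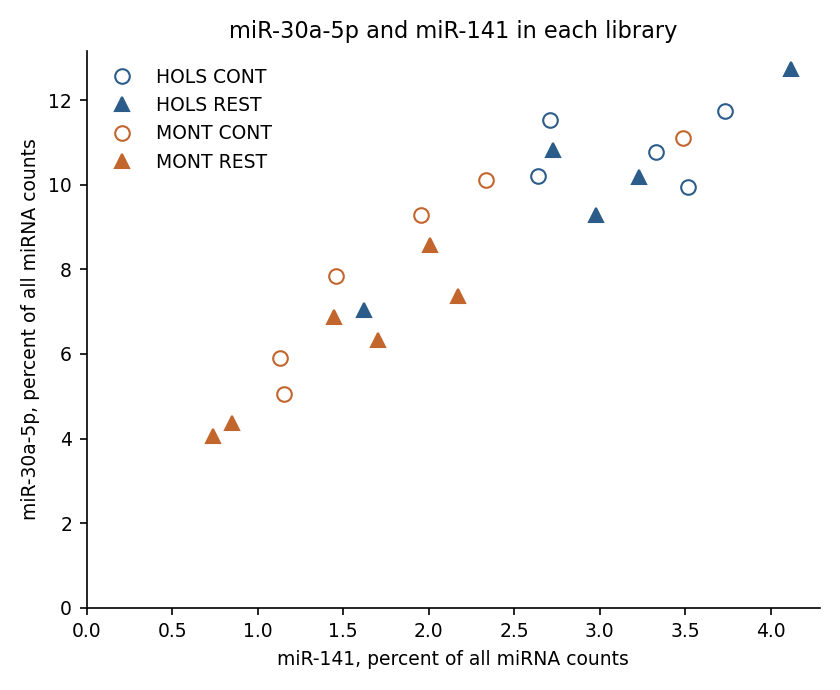
Share of all miRNA counts held by miR-30a-5p against that held by miR-141 in each of 22 libraries, with circles for CONT, triangles for REST, blue for HOLS and orange for MONT. miR-30a-5p was 2.83 to 5.52 times as abundant as miR-141, and both were lowest in MONT REST libraries.

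The tissue label was set against marker miRNAs. Of 10 epithelial markers 9 were listed, and miR-203 was not. None of the listed markers of any type was at 0 in all libraries. The epithelial sum, most of it miR-141, had an r of 0.96 with the summed log2 share of the family, but its miRNAs did not behave alike. miR-30a-5p had an r of 0.91 with miR-200c, 0.73 with miR-200a and 0.49 with miR-200b, and of -0.71 with miR-205 and -0.33 with miR-182. miR-30b-5p and miR-30c had an r of 0.06 and 0.20 with miR-141. miR-30f had an r of 0.88 with miR-429, another miR-200 family member, and of 0.57 with miR-141.

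The 6 smooth muscle and stroma markers, nearly all of whose counts were miR-143, had an r of -0.84 with the family's sum, where both are shares of the same total. Between miR-143 and single members r ran from -0.87 for miR-30d to -0.45 for miR-30b-5p. The 7 leukocyte markers summed to medians of 0.294 to 0.486% over the 4 groups (r with the family -0.62). The 3 red blood cell markers, most of their counts miR-486, summed to medians of 0.313 to 0.371% (r 0.68). In HOLS the mean of miR-486 was higher in REST (0.356 against 0.303%), while those of miR-451 (0.0164 against 0.0201%) and miR-144 were lower. In MONT all 3 had lower means in REST. The 2 endothelial markers, most of their counts miR-126-5p, summed to medians of 2.65 to 2.98% (r 0.69). Skeletal muscle markers, 3 of 4 listed with miR-206 absent from the list, had medians of 0.00658 to 0.0101% (r -0.33). The part of these cell types in the members' values was not tested.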

How the data were processed

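Per the labels, RNA was extracted from mammary biopsies and small RNA libraries were made with the TruSeq kit. According to the submitters' processing notes bcl2fastq 2.17.1.14 and DESeq2 1.18.1 were used. The authors deposited raw counts per miRNA for each library, 1 table per breed. The 22 columns of normalized counts and the authors' means, fold changes, p-values and adjusted p-values in the same tables were not used. Members of the family are close in sequence, and how reads that fit several of them were counted is not given in the sources used here.

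The raw counts were joined by miRNA name. edgeR 4.0.16 in R 4.3.3 (filterByExpr with a minimum count of 10, TMM, quasi-likelihood test without a block, limma 3.58.1 underneath) was fitted to all miRNAs within each breed, for the interaction, and between breeds within each period, and was tested on simulated data. DESeq2 1.42.0, other scalings, no filter, the cow as a block and leaving out each cow were the alternatives. Intervals use the fit's t quantile at 95%. Changes per cow used normalized counts with a pseudocount of 1. The labels give both libraries of a cow the same number, so the libraries are paired by animal. The correlation of their deviations from the group means was 0.28 to 0.53 in HOLS and -0.33 to 0.76 in MONT. Libraries of a group differed beyond sampling noise.

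All 6 members were described in every comparison, together with opposite arms, the 5 most abundant miRNAs of each breed and the miRNAs most correlated with the family or a member. Marker lists covered epithelium, smooth muscle and stroma, leukocytes, red blood cells, endothelium and skeletal muscle. Members, lists and tests were chosen with earlier results of these data known.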

Additional observations from a re-analysis of the deposited data

Results flagged for a closer look

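In 2 of 32 groups of values tested (the members and their sum, with the opposite arm, in each of the 4 groups), 1 library lay apart from the rest of its group by Dixon's test, where chance gives about 1.6. In MONT CONT, miR-30e-5p stood at 2131 cpm in cow 9615, and the other 5 libraries lay between 3109 and 3583 cpm. In MONT REST, miR-30f stood at 243 cpm in cow 1640, and the other 5 libraries lay between 124 and 156 cpm.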

How the results depend on the processing

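With the replicate block, which pairs the libraries of a cow, DESeq2 called 1 member in HOLS (miR-30f, 70 of 359 miRNAs called, 19.5%). Without the block it called 0 members (26 of 476 miRNAs, 5.46%). The block changed no other call of a member, in HOLS, in MONT or for the interaction, and could not be used between breeds. In CONT between breeds DESeq2 called 1 member (20 of 504 miRNAs called, 3.97%) against 0 (2 of 360, 0.556%). In REST between breeds DESeq2 called 3 members (83 of 481 miRNAs, 17.3%) against 2 (58 of 378, 15.3%). Library totals gave 1 member there (miR-30a-5p, both calls of the reported fit being lost), with 54 of 378 miRNAs called (14.3%). Without a filter it was 1 member (miR-30f), with 55 of 761 miRNAs called (7.23%). Leaving out each cow gave 0 to 1 members in MONT, with 1 without cow 9615 (46 of 358 miRNAs called, 12.8%). In REST between breeds it gave 0 to 3 members. There were 0 without cow 8200 (42 of 378 miRNAs called, 11.1%). There were 3 without cow 9615 (77 of 378, 20.4%) and 3 without cow 2182 (57 of 376, 15.2%). Library totals turned the HOLS values of miR-30a-5p, miR-30d and miR-30e-5p to -0.11, -0.15 and -0.10, and the interaction values of miR-30d and miR-30e-5p to 0.0326 and 0.0533. Leaving out each cow, values crossed 0 in HOLS for miR-30a-5p (-0.0671 to 0.141), miR-30d (-0.0438 to 0.0536) and miR-30e-5p (-0.00495 to 0.0806), in MONT for miR-30e-5p (-0.0973 to 0.0388), and in the interaction for miR-30b-5p (-0.0605 to 0.108), miR-30c (-0.0882 to 0.123), miR-30d (-0.168 to 0.0199) and miR-30e-5p (-0.166 to 0.0166). Without miR-143 in the total, the family held 15.2% before and 14.6% after restriction in HOLS, and 12.9% before and 10.7% after it in MONT. The cause of these changes was not tested.

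Calls over all miRNAs moved as well. In HOLS, against 9 calls, there were 61 with the block in edgeR, 70 with it in DESeq2, 26 in DESeq2 without it, 20 with library totals, 17 with the members left out of the scaling (2 higher, 15 lower), 5 without a filter and 3 to 14 without single cows. In MONT there were 46 without cow 9615 against 0. Between breeds in CONT there were 20 in DESeq2, 1 with library totals and 0 to 6 without single cows, against 2. In REST there were 83 in DESeq2, 54 with library totals, 55 without a filter and 38 to 77 without single cows, against 58. With 5 and 6 cows per breed, the precision is that of the intervals given.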
